A study of Homo sapiens with 4 samples.

Results

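The lysosome and autophagy genes described here are 49 genes that encode lysosomal hydrolases and membrane proteins, subunits of the lysosomal proton pump, the MiT/TFE transcription factors and core autophagy proteins. They were taken by gene symbol from a list drawn up with earlier results of these data known, and each symbol had 1 row among the 60487 genes of every file. All 49 reached 1 FPKM (fragments per kilobase of transcript, scaled to the mapped fragments of the library) in at least 1 library and were kept. The RNA came from HCC1937, an established human breast cancer line with no functional BRCA1. Wild-type BRCA1 had been put back in the wtBRCA1 cells, while the vector cells carried an empty vector and had the genotype BRCA1 -/-. OTX-015 (birabresib), which blocks the acetyl-lysine pocket of the BET bromodomain proteins, was compared with its solvent DMSO in each line. The 4 groups were wtBRCA1 cells with OTX-015, wtBRCA1 cells with DMSO, vector cells with OTX-015 and vector cells with DMSO. Each group was 1 library of poly(A)-selected RNA, so no value has a replicate, and any other difference between these 2 lines cannot be told apart from BRCA1. The sources used here do not state the dose, the exposure time or whether a line is 1 clone.

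Lysosomes break down protein, glycan and lipid with hydrolases that work at the acid pH kept by the vacuolar proton pump. Autophagy brings cytoplasmic cargo to them in double-membraned autophagosomes, on which proteins of the LC3 and GABARAP family are anchored and bound by cargo receptors such as p62 (SQSTM1). TFEB, TFE3 and MITF bind the CLEAR element, a palindrome built on the E-box CACGTG, in promoters of many of these genes, and are held in the cytoplasm when the kinase mTORC1 is active on the lysosome.

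The E-box that MiT/TFE factors recognise was looked up in the RefSeq promoter windows of GRCh38.p14, which run from 250 bases before to 50 bases after a transcript start. Of the 49 genes, 40 had a window. The 10-base CLEAR consensus (TCACGTGA with G before and C after it), its 8-base core TCACGTGA and the 6-base CACGTG are palindromes nested in each other, so a match on one strand is a match on both. The full consensus stood in a window of 2 of the 40 genes, GAA and MCOLN1, or 5% against 0.421% of all 27305 symbols in the table and 0.853% of those kept in the expression analysis. TCACGTGA stood in 5, namely GAA, MCOLN1, CTSA, LAMP1 and ATP6V0D1, or 12.5% against 1.18% of all symbols and 2.15% of those kept. CACGTG alone was also present at CTSD, CD63 and NEU1, which made 8 genes or 20% against 8.77% and 12.6%. LAMP1 held the most copies of CACGTG, beginning at bases -192, -176, -159, -142, -28 and -1 from its start. The 250 bases before the start of MCOLN1 and NEU1 are printed because both transcripts were higher with OTX-015 in both lines. For ATP6V0D1, which was also higher, and for GAA and CTSA, whose OTX-015 differences did not pass the test, only the motif and its surroundings are printed, 5′ to 3′ on the gene's strand. Capitals mark the longest of the 3 motifs at each place.
MCOLN1, chr19:7522374-7522623, plus strand: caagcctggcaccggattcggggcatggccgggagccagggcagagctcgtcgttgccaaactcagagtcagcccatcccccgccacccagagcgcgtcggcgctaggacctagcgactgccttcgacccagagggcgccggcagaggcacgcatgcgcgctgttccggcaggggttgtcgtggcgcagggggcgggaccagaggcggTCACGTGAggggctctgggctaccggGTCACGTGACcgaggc
NEU1, chr6:31862822-31863071, minus strand: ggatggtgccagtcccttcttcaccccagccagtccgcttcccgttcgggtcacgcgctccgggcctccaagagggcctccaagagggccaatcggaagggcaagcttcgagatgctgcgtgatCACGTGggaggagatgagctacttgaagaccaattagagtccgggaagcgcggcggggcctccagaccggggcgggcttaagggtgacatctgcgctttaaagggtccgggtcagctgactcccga
ATP6V0D1, chr16:67481191-67481236, minus strand: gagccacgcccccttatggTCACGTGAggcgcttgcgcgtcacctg
GAA, chr17:80101485-80101575, plus strand: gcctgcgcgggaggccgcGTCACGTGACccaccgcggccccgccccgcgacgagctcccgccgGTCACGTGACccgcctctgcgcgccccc
CTSA, chr20:45891273-45891334, plus strand: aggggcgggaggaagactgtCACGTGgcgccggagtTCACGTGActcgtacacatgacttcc
In MCOLN1 the 2 motifs begin at -42 and -16, in NEU1 the E-box begins at -126, and in GAA the copies of the full consensus begin at -78 and -33. Members with CACGTG in a window (8 genes) had a median OTX-015 difference of 0.67 log2 in wtBRCA1 cells and 0.73 in vector cells, and the 32 without had 0.63 and 0.19, with 3 and 6 genes past the test given next. A match is a description of these letters only.

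BRCA1 itself was at 2712 FPKM with OTX-015 and 171 with DMSO in wtBRCA1 cells, and at 40.8 and 37.2 in vector cells, so the wtBRCA1 libraries were above the vector libraries but 15.8 times apart from each other. All 9 breast epithelium markers looked up reached 1 FPKM in at least 1 library, and their sum was 7756 FPKM with OTX-015 and 6931 with DMSO in wtBRCA1 cells, and 26915 and 11382 in vector cells. KRT8 was the highest of them in every library, at 4476 and 3185 FPKM in wtBRCA1 cells and 23339 and 8160 in vector cells. The sum hides line differences in both directions. KRT5 was at 573 and 980 FPKM in wtBRCA1 cells and 23.2 and 29.4 in vector cells. KRT19 was at 1.39 and 3.97 FPKM in wtBRCA1 cells and 234 and 124 in vector cells. Of 5 blood cell markers CD3E was at 0 in all libraries. That list summed to 6.96 FPKM with OTX-015 and 9.73 with DMSO in wtBRCA1 cells, of which CD14 made 5.62 and 9.51, and to 1.73 and 0.983 in vector cells. Of 5 stromal and endothelial markers COL1A2 and PDGFRB were at 0 throughout, and the list summed to between 4.68 and 13.6 FPKM. The 10 highest genes of a library took 33.8% and 39.2% of all FPKM in the OTX-015 libraries of wtBRCA1 and vector cells, against 15.3% and 17.4% in the DMSO libraries. The part of these differences, that of BRCA1 level included, in the results was not tested.

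With OTX-015, 7 hydrolases and lipid-binding proteins, the calcium channel mucolipin 1, a pump subunit, p62 and LC3B rose, while no member fell. Differences are given as log2(FPKM + 1), OTX-015 minus DMSO, a scale that understates changes of low genes. The test was limma with line and treatment as terms and Benjamini-Hochberg adjustment over the 18304 genes kept. With 1 library a group, the spread it uses is the gap between the responses of the 2 lines, pooled over genes of like level. On simulated data the share of false calls was above the threshold, so the adjusted p is too small. Rose or fell is written only of genes past an adjusted p of 0.05. In this fit 11 of the 49 genes rose (22.4%), against 3.57% of all genes and 5.20% of genes that reached 5 FPKM, and 0 fell, against 2.58% of all genes (at an unadjusted p under 0.05, 24 members or 49.0% were higher against 12.5% of all genes, and 1 or 2.04% was lower against 10.2%). By size alone 11 members (22.4%) had OTX-015 values of 2-fold or more in each line, against 4.58% of all genes and 5.98% of genes that reached 5 FPKM, 10 of them among the 11 of the fit, and 0 were at least 2-fold lower in both against 4.43%. Differences of any size were positive in both lines for 33 members (67.3%, against 33.0% of all genes and 38.2% of genes that reached 5 FPKM) and negative in both for 6 (12.2%, against 30.2%). The median member was higher by 0.83 log2 in wtBRCA1 cells and 0.49 in vector cells, where the median of all genes was 0.00 in either line and that of genes reaching 5 FPKM was 0.06 and 0.07. The count of 11 came to 4 after median-of-ratios rescaling or with a pseudocount of 5, to 2 after quantile normalization, and to 0 without the mean-variance trend, with no filter or without the line term.

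**Figure D1:**
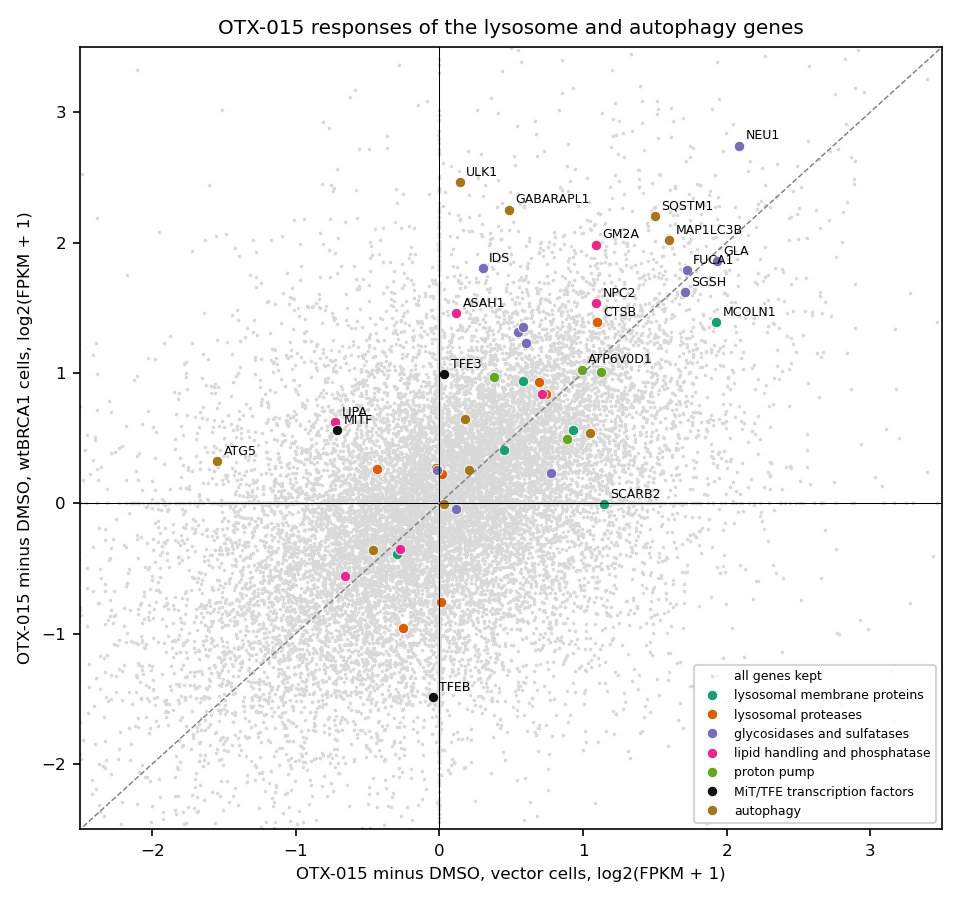
OTX-015 minus DMSO in log2(FPKM + 1), in vector cells on the x axis and in wtBRCA1 cells on the y axis, with 1 point per gene, members coloured by role and all 18304 genes kept in grey (those outside the axes are not drawn). Of the 49 members, 33 have both differences above 0 and 6 have both below 0, and the dashed line marks equal responses.

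None of the 3 MiT/TFE factors passed the test. TFEB was at 0.413 FPKM with OTX-015 and 2.96 with DMSO in wtBRCA1 cells, and at 1.37 and 1.44 in vector cells. It was the lowest member in every library, and it was lower with OTX-015 by 1.49 log2 in wtBRCA1 cells but by 0.05 in vector cells. TFE3 was at 25.9 FPKM with OTX-015 and 12.6 with DMSO in wtBRCA1 cells, against 13.6 and 13.2 in vector cells, a difference of 0.99 log2 in wtBRCA1 cells and 0.03 in vector cells. MITF had 5.43 FPKM with OTX-015 and 3.35 with DMSO in wtBRCA1 cells, and 6.38 and 11.1 in vector cells, which is the opposite direction in each line. The limma differences were -0.77 ± 0.55 log2 for TFEB, 0.51 ± 0.37 for TFE3 and -0.07 ± 0.42 for MITF (SE), with adjusted p from 0.458 to 0.931.

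Of 6 lysosomal membrane proteins 1 rose, against 3.57% of all genes. This was MCOLN1, the calcium channel mucolipin 1 that releases lysosomal calcium. It was at 30.4 FPKM with OTX-015 and 10.97 with DMSO in wtBRCA1 cells, and at 40.2 and 9.83 in vector cells. Both OTX-015 libraries lay above both DMSO libraries, and the fitted difference was 1.66 ± 0.34 log2 (SE, adjusted p = 0.0266 in limma). Of all genes 21.1% had this order, and of the 49 members 51.0%. The fit chose the genes that rose on these same values, so this order adds no support, here or for the genes below. LAMP2, a structural protein of the lysosomal membrane that also serves chaperone-mediated autophagy, was at 59.4 and 39.8 FPKM in wtBRCA1 cells and at 29.01 and 14.8 in vector cells with OTX-015 and DMSO. Its values with OTX-015 were higher within each line, but the vector OTX-015 value was below the wtBRCA1 DMSO value, and the effect of 0.75 ± 0.32 log2 did not pass (limma adjusted p = 0.206). LAMP1, the other main structural protein, differed by 0.41 and 0.45 log2 in wtBRCA1 and vector cells, and NPC1, which exports cholesterol from the lysosome, by 0.94 and 0.58. CD63, a tetraspanin of late endosomes and exosomes, was at 566 FPKM with OTX-015 and 741 with DMSO in wtBRCA1 cells, and at 871 and 1069 in vector cells. It was the 1 membrane protein with lower values under OTX-015 in both lines. SCARB2, an abundant membrane protein of lysosomes, had 20.6 and 20.7 FPKM in wtBRCA1 cells and 27.6 and 11.9 in vector cells, so that its OTX-015 value was the higher one in vector cells and about equal in wtBRCA1 cells.

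Of 8 lysosomal proteases 1 rose (against 3.57% of all genes), the cysteine protease CTSB. CTSB was at 309 FPKM with OTX-015 and 117 with DMSO in wtBRCA1 cells, and at 422 and 197 in vector cells. Every OTX-015 value was above every DMSO value, with a fitted difference of 1.24 ± 0.24 log2 (SE, adjusted p = 0.0230 in limma). CTSA, the carboxypeptidase that shields sialidase and β-galactosidase in a common complex, had 352 and 184 FPKM in wtBRCA1 cells and 317 and 196 in vector cells. The OTX-015 libraries lay above the DMSO ones in this gene too, but the effect of 0.81 ± 0.24 log2 did not pass (limma adjusted p = 0.0783), and an antisense gene over 430 of its exonic bases, RP3-337O18.9, was at 360 and 234 FPKM in wtBRCA1 cells and 371 and 101 in vector cells. CTSL, a further cysteine protease, was higher by 0.84 log2 in wtBRCA1 cells and 0.74 in vector cells and did not pass. CTSD, the aspartic protease and the most abundant member in vector cells under DMSO, was at 618 FPKM with OTX-015 and 513 with DMSO in wtBRCA1 cells, and at 1298 and 1322 in vector cells. CTSH differed by 0.22 and 0.02 log2, CTSC by 0.26 and -0.44, CTSZ by -0.76 and 0.01 and the tripeptidyl peptidase TPP1 by -0.96 and -0.26 in wtBRCA1 and vector cells. The protease list therefore had a median of 0.26 log2 in wtBRCA1 cells and 0.01 in vector cells, where all genes had 0.00.

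Glycosidases and sulfatases remove sugars and sulfates from glycoproteins, glycolipids and glycosaminoglycans. In this role group, the largest, 4 of 11 genes rose, against 3.57% of all genes. The medians were 1.35 log2 in wtBRCA1 cells and 0.60 in vector cells. NEU1, the lysosomal sialidase (ENSG00000204386, chromosome 6, 31857659 to 31862906 in GENCODE 29, hg38), was at 76.5 FPKM with OTX-015 and 10.6 with DMSO in wtBRCA1 cells. In vector cells it was at 58.2 and 12.9 FPKM. Its effect, 2.42 ± 0.34 log2 (SE, limma adjusted p = 0.00719), was the largest of the 49 genes in the fit. GLA, the α-galactosidase whose loss causes Fabry disease, was at 67.9 and 18.0 FPKM in wtBRCA1 cells and at 35.5 and 8.56 in vector cells with OTX-015 and DMSO. FUCA1, an α-fucosidase, was at 13.4 and 3.17 FPKM in wtBRCA1 cells and at 18.2 and 4.81 in vector cells. In these genes, as in NEU1, no DMSO value reached an OTX-015 value, and the effects were 1.89 ± 0.33 and 1.75 ± 0.36 log2 (limma adjusted p = 0.0149 and 0.0253). SGSH, a sulfatase that acts on heparan sulfate, was at 23.1 and 6.84 FPKM in wtBRCA1 cells and at 21.7 and 5.95 in vector cells, an effect of 1.66 ± 0.35 log2 (limma adjusted p = 0.0266).

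The other glycosidases did not pass the test. GLB1, the β-galactosidase, MAN2B1, an α-mannosidase, and NAGLU, which acts on heparan sulfate, were higher by 1.31, 1.35 and 1.23 log2 in wtBRCA1 cells and by 0.55, 0.58 and 0.60 in vector cells. IDS, the iduronate sulfatase, was at 17.5 FPKM with OTX-015 and 4.31 with DMSO in wtBRCA1 cells, and at 9.39 and 7.42 in vector cells. GAA, the acid α-glucosidase that degrades glycogen, GUSB, the β-glucuronidase, and HEXA, a subunit of β-hexosaminidase, differed by 0.24, 0.25 and -0.05 log2 in wtBRCA1 cells and by 0.78, -0.02 and 0.12 in vector cells. HEXA and GUSB had the smallest limma effects of this group, 0.03 ± 0.29 and 0.12 ± 0.33 log2.

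Of 7 genes of lipid handling and phosphatase activity 2 rose (against 3.57% of all genes), both small lipid-binding proteins. NPC2, which hands cholesterol to NPC1, was at 416 FPKM with OTX-015 and 143 with DMSO in wtBRCA1 cells, and at 399 and 187 in vector cells (1.31 ± 0.25 log2, SE, limma adjusted p = 0.0198). GM2A, the activator protein that presents ganglioside to β-hexosaminidase, was at 14.8 and 3.01 FPKM in wtBRCA1 cells and at 11.8 and 5.02 in vector cells. In both genes the OTX-015 libraries stood above the DMSO libraries, although GM2A only just passed (1.54 ± 0.39 log2, limma adjusted p = 0.05 after rounding) and passed under none of the 9 alternative settings. PSAP, the precursor of the saposins, was at 559 and 313 FPKM in wtBRCA1 cells and at 684 and 416 in vector cells, without overlap, and did not pass (0.78 ± 0.21 log2, limma adjusted p = 0.0616). ASAH1, the acid ceramidase, had 155 and 55.6 FPKM in wtBRCA1 cells and 96.2 and 88.6 in vector cells. PPT1, which removes palmitate from proteins, had lower values with OTX-015 in both lines, at 326 and 480 FPKM in wtBRCA1 cells and at 221 and 349 in vector cells (-0.61 ± 0.22 log2, limma adjusted p = 0.145). The acid phosphatase ACP2 differed by -0.35 and -0.28 log2 in wtBRCA1 and vector cells. PPT1 shares 1189 exonic bases with CAP1 on the opposite strand, which went the other way, at 359 and 222 FPKM in wtBRCA1 cells and 275 and 173 in vector cells; the sources used here do not say whether strand was used in counting.

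All 4 proton pump genes were higher with OTX-015 in both lines, with medians of 0.99 log2 in wtBRCA1 cells and 0.94 in vector cells, and 1 of them rose. Of all genes 33.0% were higher in both lines and 3.57% rose, and of genes that reached 5 FPKM 38.2% and 5.20%. ATP6V0D1, a subunit of the membrane sector, was at 431 FPKM with OTX-015 and 211 with DMSO in wtBRCA1 cells, and at 205 and 103 in vector cells. The ratio of OTX-015 to DMSO was 2.04 and 2.0 in the lines, although the OTX-015 value of vector cells did not exceed the DMSO value of wtBRCA1 cells (1.01 ± 0.24 log2, SE, limma adjusted p = 0.0425, kept under 1 of 9 alternative settings). ATP6V0A1, another membrane subunit, was at 48.4 and 23.6 FPKM in wtBRCA1 cells and at 58.2 and 26.1 in vector cells, at least 2-fold in each, with a limma adjusted p of 0.0783. ATP6V1A and ATP6V1H, of the cytosolic sector that hydrolyses ATP, were higher by 0.49 and 0.97 log2 in wtBRCA1 cells and by 0.89 and 0.38 in vector cells.

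Of 10 autophagy genes 2 rose (against 3.57% of all genes), the receptor SQSTM1 and the autophagosome protein MAP1LC3B. SQSTM1 (ENSG00000161011, chromosome 5, 179806398 to 179838078) was at 2925 FPKM with OTX-015 and 634 with DMSO in wtBRCA1 cells, and at 1648 and 580 in vector cells. It was the most abundant member in both OTX-015 libraries, and the effect of 1.85 ± 0.21 log2 had the lowest limma adjusted p of the 49 genes, 0.00258. C5orf45, which overlaps 1582 of its exonic bases on the opposite strand, was at 15872 FPKM with OTX-015 and 2380 with DMSO in wtBRCA1 cells and at 7140 and 2134 in vector cells, so how reads were divided between them is uncertain. Without SQSTM1 the other 48 members summed to 5958 FPKM with OTX-015 and 4208 with DMSO in wtBRCA1 cells, and to 6402 and 5497 in vector cells. These sums do not show a larger share of the library, because total FPKM differed too. The total was 1477103 with OTX-015 and 962379 with DMSO in wtBRCA1 cells, and 1496107 and 909314 in vector cells. All 49 members, SQSTM1 included, made 0.601% and 0.503% of it in wtBRCA1 cells. In vector cells they made 0.538% with OTX-015 and 0.668% with DMSO, a lower share with OTX-015. MAP1LC3B, the gene of LC3B, was at 44.1 and 10.1 FPKM in wtBRCA1 cells and at 17.5 and 5.09 in vector cells (1.81 ± 0.35 log2, limma adjusted p = 0.0218), with both OTX-015 libraries above both DMSO libraries. FBXO31, which shares 150 exonic bases with it on the opposite strand, was at 21.6 and 13.4 FPKM in wtBRCA1 cells and 15.3 and 8.90 in vector cells.

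The GABARAP genes are relatives of LC3. GABARAP itself was at 36.0 FPKM with OTX-015 and 46.5 with DMSO in wtBRCA1 cells, and at 45.1 and 62.5 in vector cells, and so was lower in both lines. GABARAPL1 was at 53.9 and 10.5 FPKM in wtBRCA1 cells and at 15.1 and 10.5 in vector cells (1.37 ± 0.44 log2, limma adjusted p = 0.104), which places 1 OTX-015 library far above the other 3. GABARAPL2 was at 146 and 93.0 FPKM in wtBRCA1 cells and at 53.9 and 47.6 in vector cells. None of the 3 passed the test, and 691 exonic bases of GABARAP are shared with a gene on the same strand, CTD-2545G14.7, at 98.0 and 85.6 FPKM in wtBRCA1 cells and 54.0 and 98.9 in vector cells.

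The other 5 autophagy members did not pass. WIPI1, which binds phosphoinositide on the forming membrane, was higher by 0.54 log2 in wtBRCA1 cells and 1.05 in vector cells. ULK1, the initiating kinase, was at 29.9 FPKM with OTX-015 and 4.61 with DMSO in wtBRCA1 cells, against 12.1 and 10.9 in vector cells. ATG5, part of the ligase that attaches lipid to LC3, was at 82.0 and 65.2 FPKM in wtBRCA1 cells and at 20.4 and 61.5 in vector cells, and the low value is that of vector cells with OTX-015. ATG7, the activating enzyme of the same conjugation, differed by 0.25 and 0.21 log2 in wtBRCA1 and vector cells, and BECN1, a subunit of the class III phosphoinositide kinase complex, by -0.01 and 0.03.

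**Figure D2:**
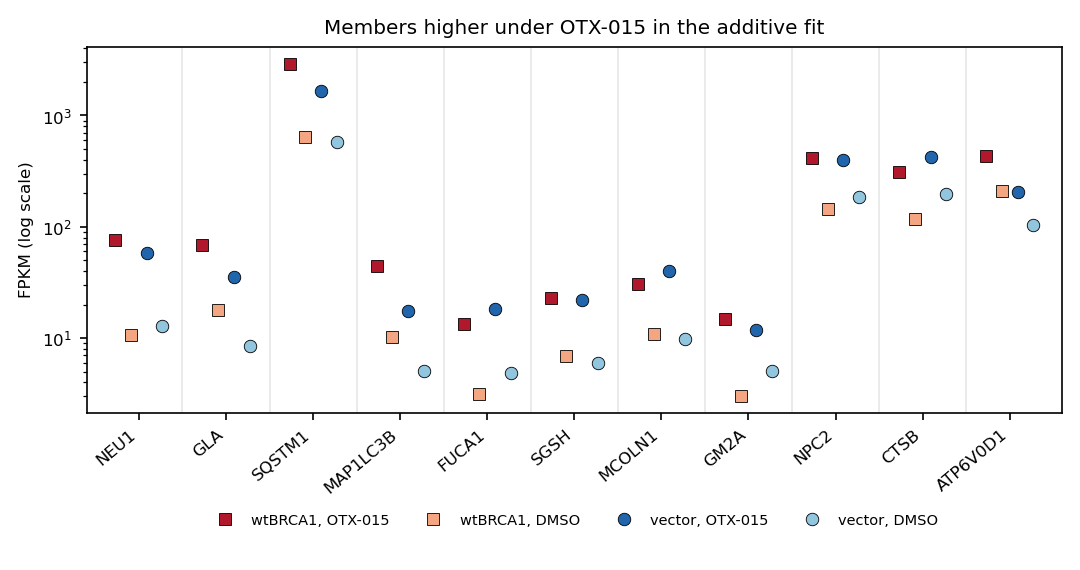
FPKM on a log axis in the 4 libraries for the 11 members that rose with OTX-015, ordered by limma effect, with 1 point per library and no error bars because each group is 1 library. Both dark OTX-015 points lie above both pale DMSO points in 10 of these 11 genes, which the fit chose for their OTX-015 effect (25 of all 49 members or 51.0%, and 21.1% of all genes, have this order), and in ATP6V0D1 the vector OTX-015 point (205) lies just under the wtBRCA1 DMSO point (211).

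Other genes of these pathways were listed without the 49. These lists too were chosen with earlier results of these data known, so they are not an independent check. Of 125 such genes kept, 10 rose (8.0%, against 3.57% of all genes and 5.20% of genes that reached 5 FPKM) and 0 fell (against 2.58% of all genes). In both lines 74 were higher (59.2%, against 33.0% of all genes and 38.2% of genes that reached 5 FPKM). Their medians were 0.41 log2 in wtBRCA1 cells and 0.59 in vector cells. Of 26 other hydrolases 3 rose. The cysteine protease CTSV was at 223 FPKM with OTX-015 and 28.8 with DMSO in wtBRCA1 cells, and at 58.0 and 21.2 in vector cells. The asparaginyl protease LGMN was at 297 and 60.9 FPKM in wtBRCA1 cells and at 203 and 71.5 in vector cells, and the acid sphingomyelinase SMPD1 at 17.3 and 2.19 FPKM in wtBRCA1 cells and at 8.88 and 3.23 in vector cells. Of 14 other proton pump subunits 3 rose, ATP6V1C1, ATP6V0C and ATP6V1D, by 1.69, 1.28 and 1.25 log2. In both lines 11 of the 14 were higher, against 33.0% of all genes. Among 32 other autophagy genes RB1CC1, which scaffolds the ULK1 complex, rose by 1.67 and the lipid transfer protein ATG2A by 1.54 log2. Among 18 genes of delivery to the lysosome the sorting adaptor GGA2 and GNPTG, which helps make the mannose phosphate tag of hydrolases, rose by 1.71 and 1.09 log2. None of 16 other membrane proteins and none of 19 genes of mTORC1 and its regulators passed the limma threshold in either direction. With 3.57% of all genes that rose and 2.58% that fell, lists this short would hold few calls. The absence of calls is therefore not read as a lack of response. By size, 1 of the mTORC1 list, LAMTOR3, a subunit of the complex that anchors mTORC1 to the lysosome, was at least 2-fold lower in both lines, at 11.7 FPKM with OTX-015 and 37.1 with DMSO in wtBRCA1 cells and at 11.1 and 23.6 in vector cells (limma adjusted p = 0.0588). The mTORC1 list had medians of 0.04 log2 in wtBRCA1 cells and 0.30 in vector cells.

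The size of the OTX-015 difference was next set side by side in the lines. With 1 library a group no test of this gap was possible. The wtBRCA1 response exceeded the vector response by at least 1 log2 unit in 7 of 49 members (14.3%), against 13.2% of all genes, and was smaller by that much in 2 (4.08%), against 14.1%. The first share is close to that of all genes. The 7 were ULK1 with a gap of 2.32 log2, ATG5 with 1.87, GABARAPL1 with 1.76, IDS with 1.5, LIPA with 1.35, ASAH1 with 1.34 and MITF with 1.28. The 2 in the other direction were TFEB with -1.44 and SCARB2 with -1.15. At least 2-fold higher values with OTX-015 were seen for 19 members in wtBRCA1 cells (38.8%, against 13.0% of all genes) and for 13 in vector cells (26.5%, against 13.0%). The genes that rose had gaps from 0.89 log2 in GM2A to -0.54 in MCOLN1, a range that the fit itself limits because its spread is this gap.

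The second comparison set wtBRCA1 cells against vector cells under each treatment. Members moved in both directions, with 4 that rose (8.16%, against 4.75% of all genes) and 3 that fell (6.12%, against 3.34%) in the line term of the same limma fit. Of the 12533 genes that reached 5 FPKM, 851 rose and 601 fell. The member counts are small, and no excess over all genes is read from them. The median member differed by 0.15 log2 with OTX-015 and -0.14 with DMSO, against 0.00 and 0.04 for all genes. The largest difference was that of LIPA, the acid lipase that frees cholesterol from its esters (ENSG00000107798, chromosome 10, 89213569 to 89414557). LIPA was at 23.2 FPKM in wtBRCA1 cells and 108 in vector cells with OTX-015, and at 14.7 and 180 with DMSO. Both wtBRCA1 values were below both vector values, and the gene fell by 2.85 ± 0.37 log2 (SE, limma adjusted p = 0.00271). RP11-149I23.3, an antisense gene over 135 of its exonic bases, was listed at 0 in both wtBRCA1 libraries and at 9.17 and 38.6 FPKM in vector cells with OTX-015 and DMSO.

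Of the other 6 genes that passed, 3 were proteases. CTSC, the dipeptidyl peptidase that activates granule proteases, was at 212 FPKM in wtBRCA1 cells and 40.9 in vector cells with OTX-015, and at 177 and 55.7 with DMSO, and rose by 2.0 ± 0.30 log2 (SE, limma adjusted p = 0.00482). CTSD was at 618 and 1298 FPKM with OTX-015 and at 513 and 1322 with DMSO in wtBRCA1 and vector cells, and fell by 1.22 ± 0.19 log2 (limma adjusted p = 0.00619). CTSZ, an exopeptidase, was at 24.7 and 113 FPKM with OTX-015 and at 42.4 and 112 with DMSO, and fell by 1.77 ± 0.32 log2 (limma adjusted p = 0.0110). In each of these genes, as in LIPA, the lines did not overlap. The line term of the fit chose them on these same values, so this order adds no support. The share of all genes with this order was not computed. AC068580.6, antisense to 493 exonic bases of CTSD, was lower in wtBRCA1 cells too, at 59.8 and 134 FPKM with OTX-015 and at 54.6 and 115 with DMSO. CTSL was also at least 2-fold lower in wtBRCA1 cells under both treatments, at 60.97 and 125 FPKM with OTX-015 and at 33.6 and 74.1 with DMSO, and did not pass (limma adjusted p = 0.0548). Of 8 proteases 6 were lower in wtBRCA1 cells under both treatments, and CTSC was the 1 that was higher under both, where 29.7% of all genes were lower and 34.5% higher under both. Over all 49 members these shares were 36.7% and 34.7%.

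GAA was at 28.7 FPKM in wtBRCA1 cells and 12.6 in vector cells with OTX-015, and at 24.2 and 6.92 with DMSO, and rose by 1.40 ± 0.35 log2 (SE, limma adjusted p = 0.0398). GABARAPL2 rose by 1.19 ± 0.29 log2 (limma adjusted p = 0.0391) and ATP6V0D1 by 1.05 ± 0.24 (limma adjusted p = 0.0304). All 3 had both wtBRCA1 values above the vector value of the same treatment, and each lost its call after median-of-ratios rescaling, quantile normalization and with a pseudocount of 5. LAMP2 was more than 2-fold higher in wtBRCA1 cells under both treatments and stayed just outside the threshold (1.19 ± 0.32 log2, limma adjusted p = 0.0540), as did ATP6V1A (1.17 ± 0.31 log2, limma adjusted p = 0.0508). By size alone 4 members were at least 2-fold higher under both treatments (8.16%, against 6.11% of all genes) and 4 lower (8.16%, against 4.44%). Of the 12533 genes that reached 5 FPKM, 911 were higher and 666 lower by this measure, so the member shares are near the background. BECN1 was at 34.1 FPKM in wtBRCA1 cells and 67.3 in vector cells with OTX-015, and at 34.3 and 65.95 with DMSO, and did not pass (limma adjusted p = 0.0918). An opposite-strand neighbour, CNTD1, which shares 795 exonic bases with it, was at 93.7 and 175 FPKM with OTX-015 and at 77.1 and 187 with DMSO, the same direction. PSME3, which shares 300 exonic bases with BECN1 on the opposite strand, also had this direction. It was at 328 and 715 FPKM with OTX-015 and at 312 and 513 with DMSO, so how reads were divided is uncertain.

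**Figure D3:**
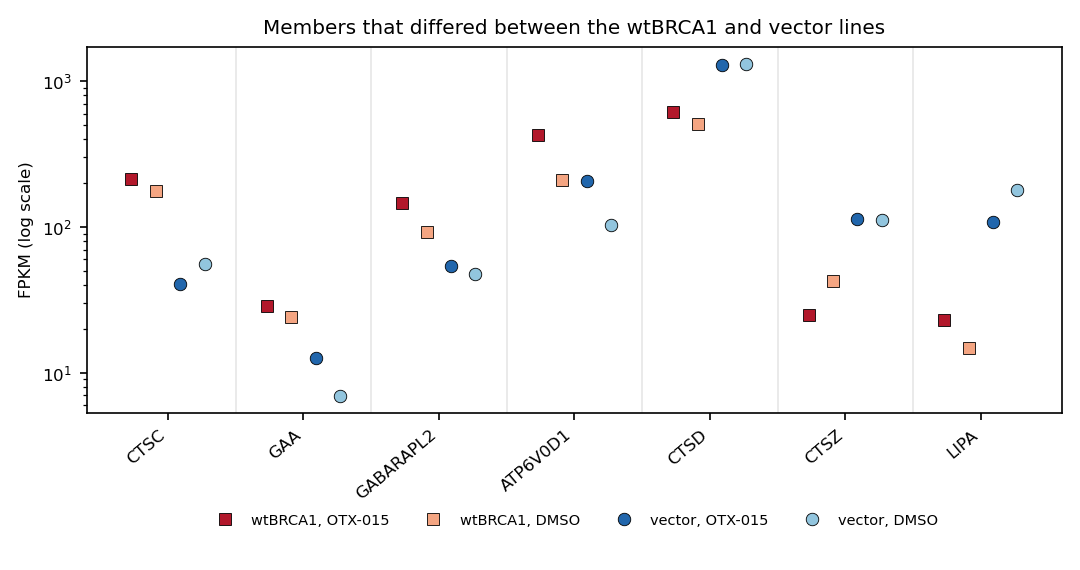
FPKM on a log axis in the 4 libraries for the 7 members that differed between the lines in the limma fit, ordered from the highest to the lowest effect, with 1 point per library and no error bars. Squares (wtBRCA1) lie above circles (vector) of the same treatment in the 4 genes on the left and below them in the 3 on the right, with LIPA at 23.2 and 14.7 FPKM against 108 and 180.

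Among the pathway genes outside the 49, 9 rose (7.2%, against 4.75% of all genes) and 3 fell (2.4%, against 3.34%) in wtBRCA1 cells relative to vector cells. These lists were chosen with earlier results of these data known, and no excess is read from the counts.

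**Figure D4:**
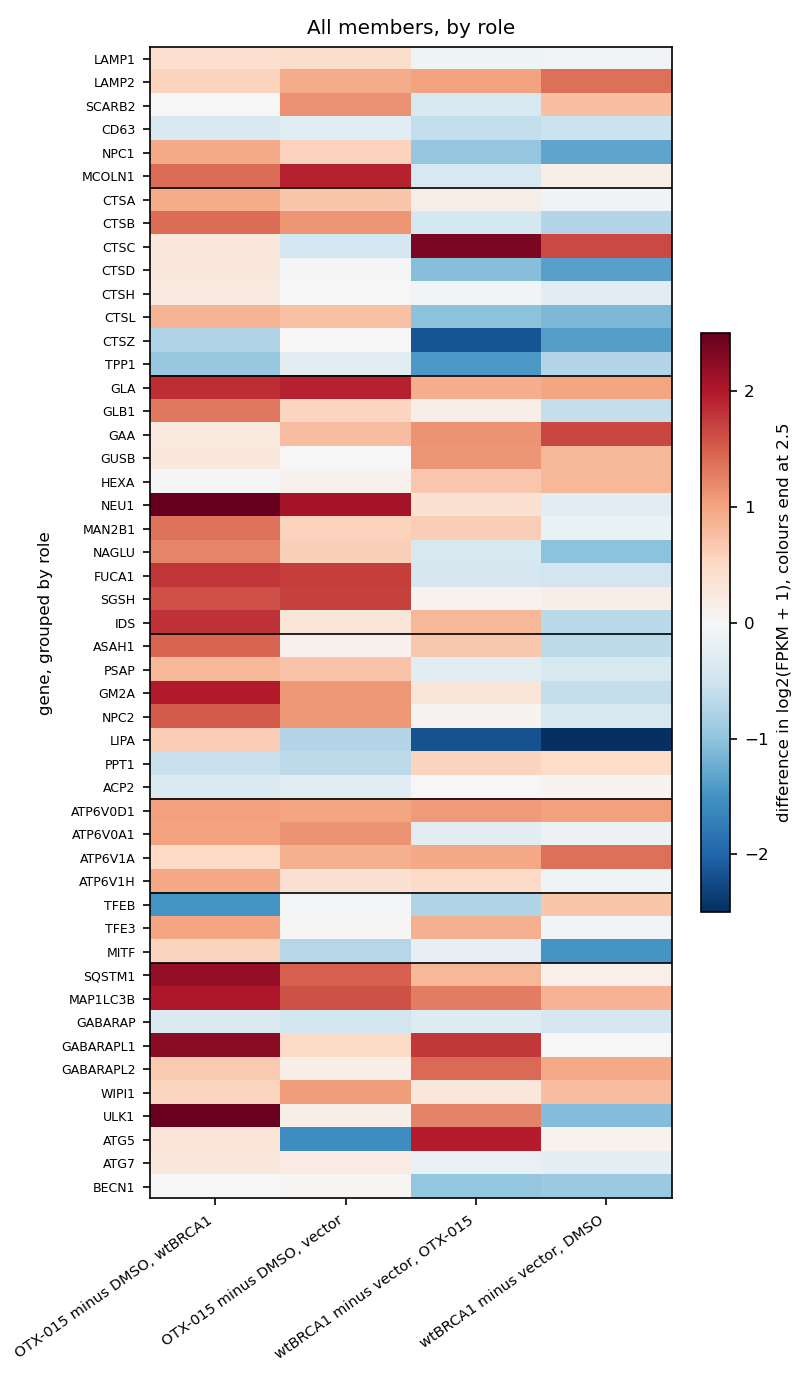
Differences in log2(FPKM + 1) of all 49 members, 1 row per gene grouped by role in the order of membrane proteins, proteases, glycosidases and sulfatases, lipid handling and phosphatase, proton pump, MiT/TFE factors and autophagy, with red for higher and blue for lower in the first-named library. The OTX-015 columns are mostly red, with 39 of 49 positive differences in wtBRCA1 cells and 37 in vector cells (49.4% and 49.7% of all genes), and the line columns hold both colours (colours end at 2.5, which NEU1 and LIPA exceed).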

How the data were processed

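RNA of 4 libraries, 1 per group, was analysed. The authors deposited 1 table per library with the FPKM of 60487 genes. The submitters' processing notes name TopHat2, Cufflinks and hg38. The sources used here do not state versions, annotation release, scaling between libraries or use of strand, and FPKM carry no counts, so depth is unknown. Genes were joined by identifier (94.2% found in GENCODE 29), 7088 short structural RNA genes were left out, 75 repeated symbols were summed, and genes at 1 FPKM or more in a library were kept (18304). On log2(FPKM + 1), limma 3.58.1 (R 4.3.3) fitted line and treatment with the mean-variance trend, leaving 1 residual degree of freedom. On simulated data large changes were recovered, and the share of false calls was above the threshold of 0.05 in every draw, so the adjusted p is too small. With 1 library a group, the adjusted p does not measure the spread between cultures. Members and lists were chosen with earlier results of these data known. Members past the test or at least 2-fold different in both pairs, the MiT/TFE factors and 1 family of autophagy genes are given in every library, and from each other list up to 4 genes past the OTX-015 threshold by size. Members outside this rule with values in every library were chosen after their values were seen. Alternatives were pseudocounts of 0.1 and 5, a filter of 5 FPKM and none, 2 rescalings, no trend, robust fitting and leaving out the other factor. Of the listed genes, 1 was matched by an older symbol. Some items are not reported here. Overlapping genes were looked up where they reached 10 FPKM in a library. Python 3.11.15, pandas 2.3.3, numpy 2.4.6 and matplotlib 3.10.9 were used.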

Additional observations from a re-analysis of the deposited data

Results flagged for a closer look

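For 8 members the OTX-015 difference, or the difference between the lines, went in opposite directions and the OTX-015 responses of wtBRCA1 and vector cells were at least 1 log2 unit apart. With 1 library a group these gaps were not tested. Gaps of this size alone were seen in 13.2% of all genes with the higher response in wtBRCA1 cells, and in 14.1% with the lower. The share of all genes that met both conditions was not computed, so no excess is read from the count of 8. The gap, wtBRCA1 response minus vector response, was 2.32 log2 for ULK1, 1.87 for ATG5, 1.5 for IDS, 1.35 for LIPA, 1.34 for ASAH1, 1.28 for MITF, -1.15 for SCARB2 and -1.44 for TFEB. ATG5, LIPA, MITF and SCARB2 had OTX-015 differences of opposite sign in the lines, of 0.33, 0.62, 0.56 and -0.01 log2 in wtBRCA1 cells and -1.55, -0.73, -0.71 and 1.15 in vector cells. For SCARB2 the wtBRCA1 values were about equal, at 20.6 FPKM with OTX-015 and 20.7 with DMSO. ULK1, IDS, ASAH1 and TFEB had line differences of opposite sign, of 1.24, 0.83, 0.68 and -0.74 log2 with OTX-015 and -1.08, -0.66, -0.66 and 0.70 with DMSO.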

How the results depend on the processing

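The 11 members that rose with OTX-015 came to 4 with a pseudocount of 5 or after median-of-ratios rescaling, to 2 after quantile normalization and to 0 with no filter, without the trend or with the other factor left out, and stayed within 1.5 times in the other settings. SQSTM1 and NEU1 kept their calls in 6 of 9 settings, losing them in the settings that gave 0. The 4 members that rose in the wtBRCA1 line came to 1 with a pseudocount of 5, a filter of 5 FPKM, no filter, median-of-ratios rescaling or quantile normalization and to 0 without the trend or with the other factor left out, and the 3 that fell came to 0 in these last settings. LIPA, CTSC and CTSZ kept their calls in 7 of 9. The 4 members at least 2-fold higher in that line under both treatments came to 2 with a pseudocount of 5 or under either rescaling, and the median line difference with OTX-015 moved to 0.05 log2 after quantile normalization. Effects of OTX-015 that did not pass changed sign after quantile normalization for CTSD (-0.37 log2), CTSH (-0.06), HEXA (-0.06) and BECN1 (-0.03), and after median-of-ratios rescaling for HEXA (-0.04) and BECN1 (-0.06). The causes were not tested. No paired analysis was possible because each group has 1 library and the labels give no replicate numbers. Leaving out a library leaves the difference of the other pair, which the report gives. Depth is unknown and limits the low members, such as TFEB, to an unknown degree.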

Other observations

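Pathway genes outside the 49 also differed between the lines, and those named here were chosen after their values were seen. CTSS, a cysteine protease of antigen-presenting cells, was at 8.03 FPKM with OTX-015 and 16.5 with DMSO in wtBRCA1 cells and was listed at 0 in both vector libraries (limma adjusted p = 0.00215). LAMP3, a lysosomal membrane protein of mature dendritic cells, was at 11.4 and 19.1 FPKM in wtBRCA1 cells and at 1.15 and 0.423 in vector cells (limma adjusted p = 0.00341). CD14 had the same direction, at 5.62 and 9.51 FPKM in wtBRCA1 cells and at 0 and 0.109 in vector cells. CSF1R, of the same marker list, had the other direction, at 1.275 and 0 FPKM in wtBRCA1 cells and at 1.734 and 0.805 in vector cells. PTPRC was at most 0.225 FPKM in any library, and no cell type is read from these genes. SORT1, a sorting receptor for lysosomal proteins, was at 186 and 135 FPKM in wtBRCA1 cells and at 32.5 and 15.9 in vector cells (limma adjusted p = 0.00125).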
